A study of Mus musculus with 12 samples.

Results

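The m6A peaks of 5 genes that act in mitosis, in cytokinesis and at the nuclear lamina were examined in mouse embryonic fibroblasts (MEFs) that had reached replicative senescence. The genes were Anln, Kif4, Ncapg2, Birc5 and Lmnb1, and they are 5 of the 633 genes for which the authors deposited an m6A peak that differed between senescent and young cells. They were chosen by their role from among the genes with such a peak, with the listed results known, so that the measured values that put a peak on the list also chose the genes, and the directions below are a description only. Each gene had 1 listed peak on 1 transcript, which gave 5 of the 1043 listed peaks. A peak found on several transcripts of a gene is listed once for each, and counts of listed peaks below are counts of these entries. The cells compared were MEFs at passage 9 (P9, senescent) and MEFs at passage 3 (P3, young), both grown from embryos of C57BL/6 mice in the same medium with serum and with no agent or genetic change that separates the passages. Each passage had 3 MeRIP and 3 input libraries, 12 in all. In MeRIP-seq, RNA is cut into short fragments and those that carry N6-methyladenosine (m6A) are pulled down with an antibody, and a peak is an interval in which such fragments are enriched over the input.

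m6A is the most common internal mark of mRNA. It is written on the nascent transcript by a complex around the methyltransferase METTL3, gathers around the stop codon and in the 3' UTR of many mRNAs, and is read by proteins that change the decay, the splicing or the translation of the message. In a dividing cell, condensins compact the chromosomes, kinesins and the chromosomal passenger complex align and separate them, a contractile ring of actin and myosin pinches the daughter cells apart, and the lamina of the nuclear envelope is taken apart and built again. Fibroblasts that become senescent leave this cycle for good, and loss of lamin B1 is widely used as a marker of that state.

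Of the 5 peaks, 4 were listed as higher in P9 than in P3 MEFs (Kif4, Ncapg2, Birc5 and Lmnb1) and 1 as lower (Anln). Over all 633 genes with a listed peak, 79.3% had only higher peaks and 19.3% had only lower peaks, so a majority of higher peaks was also found in the whole list. The 4 higher peaks all reached into the 3' UTR, and the lower peak lay wholly inside coding sequence. A statement of higher or lower is the authors' call for the passages as a whole, and it rests on reading their treated group as P9, since the deposited lists name only treatment and control. No value per library was used here, so the spread between replicates could not be seen for any single peak. Whether the call was corrected for the level of the mRNA in the input libraries is not stated in the sources used here, so a change of methylation and a change in the amount of transcript cannot be told apart, nor can fewer cells with a transcript and less of it per cell. The lists hold differing peaks only. None of 8 fibroblast genes that were looked up (Col1a1, Col1a2, Col3a1, Pdgfra, Pdgfrb, Thy1, Vim and S100a4) had a listed peak. The labelled cell type could not be checked here with or without such peaks, because the lists hold no expression level.

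Anln encodes anillin, a scaffold that ties actin, myosin and septins to the contractile ring at the site of cytokinesis. Its peak was the single lower peak of the group. It lay on the minus strand of chromosome 9 of mm10 from 22356125 to 22358675, on transcript ENSMUST00000040912.8, and was labelled as coding sequence. The peak was broken into 3 exon blocks. In the order of transcription these were 63 nt from 22358613 to 22358675, 183 nt from 22358120 to 22358302 and 54 nt from 22356125 to 22356178, with gaps of 310 nt and 1941 nt between them. Together the blocks covered 300 nt, or 6.51% of the 4605 nt of the transcript. On GRCm38.p6, the patched release of mm10, RefSeq places the gene between 22331214 and 22389211, so the peak sat in the middle of the gene. Its midpoint was 45.1% of the gene's span away from the 3' end, and 24911 nt separated its 3' edge from that end. Among the lower peaks this was no unusual place, since 91 of 203 (44.8%) carried the coding label alone and 112 of the 194 that could be placed inside a gene (57.7%) lay nearer to the 3' end by the same measure. The 3 blocks were less common, with 26 of 203 lower peaks (12.8%) in the same number of blocks.

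**Figure D1:**
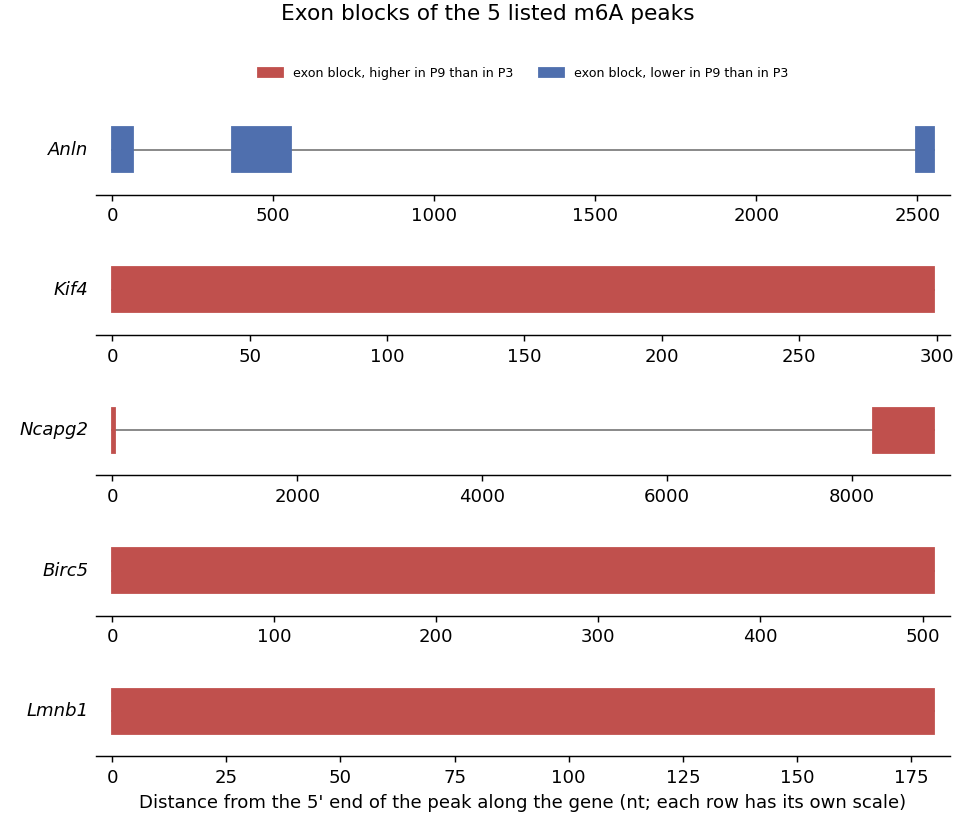
Exon blocks of the 5 listed peaks, drawn to scale from the 5' to the 3' end of each peak. The x axis is the distance along the gene in nt, with a scale of its own in each row, boxes are exon blocks and lines are the stretches between them. Kif4, Birc5 and Lmnb1 had 1 block, Ncapg2 had blocks of 27 and 660 nt, and the lower peak of Anln had blocks of 63, 183 and 54 nt.

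Kif4 encodes a chromokinesin, a motor that binds chromosome arms and works with condensin in shaping mitotic chromosomes and with the midzone protein Prc1 in building the central spindle. Its peak was higher in P9 MEFs and lay in the 3' UTR of transcript ENSMUST00000048962.3, at 100726886 to 100727184 of chromosome X, plus strand. It was 1 block of 299 nt, or 6.0% of the 4983 nt of the transcript. The RefSeq gene runs from 100626065 to 100727271, and the peak stopped 87 nt short of its 3' end. With the midpoint at 0.233% of the gene's span from the 3' end, Kif4 had the most terminal peak of the 5 by this relative measure. Of the 812 higher peaks that could be placed inside a gene, 64 (7.88%) lay nearer.

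Ncapg2 encodes a HEAT-repeat subunit of condensin II, the condensin complex that is nuclear also in interphase and starts to compact chromosomes in prophase. Its peak was higher in P9 MEFs and spanned 116452340 to 116461223 of chromosome 12, plus strand, on transcript ENSMUST00000084828.4. It carried the labels of both the 3' UTR and coding sequence, the only peak of the 5 to do so, as did 147 of the 840 higher peaks (17.5%). A first block of 27 nt from 116452340 to 116452366 was followed, after a gap of 8197 nt, by a block of 660 nt from 116460564 to 116461223. The 687 nt of the 2 blocks made it the longest of the 5 peaks, and 40 of the 840 higher peaks (4.76%) were longer. This was 14.7% of the 4684 nt of the transcript. The RefSeq gene runs from 116405351 to 116463532, and its 3' end was still 2309 nt away from the 3' edge of the peak.

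Birc5 encodes survivin, the subunit that brings the chromosomal passenger complex with Aurora B to the inner centromere and later to the midzone, and which also belongs to the family of inhibitors of apoptosis. Its peak was higher in P9 MEFs, with the 3' UTR label alone, and lay at 117855237 to 117855743 of chromosome 11, plus strand, on transcript ENSMUST00000093906.4. The last base of the peak was the last base of the RefSeq gene, which runs from 117849237 to 117855743, so that the distance from the 3' edge to the end of the gene was 0 nt. The peak was 1 block of 507 nt, and 124 of the 840 higher peaks (14.8%) were longer. Relative to its transcript of 3334 nt it was the widest of the group, with 15.2%. Birc5 is also the shortest gene of the 5, with a span of 6507 nt against 45612 to 101207 nt for the others, and the midpoint of its peak thus came to 3.89% of the span although it was 253 nt from the end, close to the 236 nt in Kif4.

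Lmnb1 encodes lamin B1, a farnesylated intermediate filament protein of the lamina under the inner nuclear membrane. Its peak was higher in P9 MEFs and lay in the 3' UTR of transcript ENSMUST00000025486.8, at 56752886 to 56753065 of chromosome 18, plus strand. With 180 nt in 1 block it was the shortest peak of the group, and 592 of the 840 higher peaks (70.5%) were longer. It covered 6.33% of a transcript of 2843 nt, the shortest transcript of the 5. The RefSeq gene runs from 56707813 to 56753424, and 359 nt separated the peak from its 3' end. The midpoint lay at 0.983% of the span, with 200 of the 812 higher peaks (24.6%) nearer.

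The lengths of the 5 peaks ran from 180 to 687 nt with a median of 300 nt. The median over all listed peaks was 269 nt for the higher (interquartile range 180 to 390.25 nt) and 238 nt for the lower peaks (180 to 328 nt). Anln and Kif4 had nearly the same peak length, 300 and 299 nt, in opposite directions and at different places of the transcript. The peak lengths of the whole list fell on a grid, as 815 of 1043 (78.1%) were within 1 nt of a multiple of 30 nt. The peaks of Anln, Kif4 and Lmnb1 were on this grid, and those of Birc5 and Ncapg2 were each 3 nt off it. A difference of a few nt between peak lengths is therefore below the step on which most of the listed lengths fell.

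**Figure D2:**
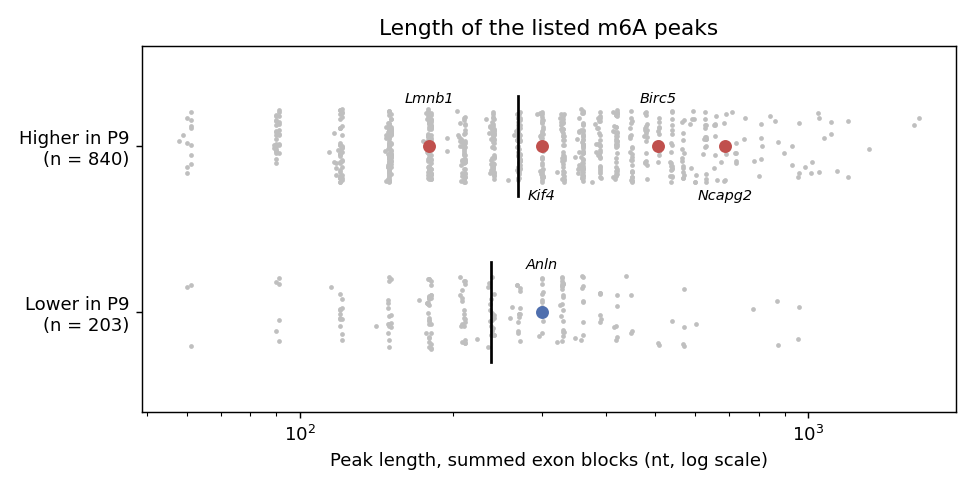
Length of each listed peak as the sum of its exon blocks, in nt on a log axis, for the 840 peaks higher and the 203 lower in P9 than in P3 MEFs. Grey points are listed peaks, black bars the medians of 269 and 238 nt, and coloured points the 5 genes, of which Lmnb1 lies below and Kif4, Birc5, Ncapg2 and Anln above the median of their direction.

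Along the gene, 3 of the 4 higher peaks (Kif4, Lmnb1 and Birc5) had a midpoint within 5% of the gene's span from the 3' end, as did 393 of the 812 higher peaks that could be placed (48.4%). Ncapg2 lay at 11.6%. A midpoint is that of the genomic span of a peak with its introns, and for Ncapg2 it fell in the gap of 8197 nt between the blocks. The Ncapg2 block of 660 nt began 94.9% of the span away from the 5' end of the gene. Its 3' edge was 3.97% of the span from the 3' end, so the count within 5% depends on this measure. The medians of the whole list were 5.45% for the higher and 29.3% for the lower peaks. The peaks of this group followed the places of the list as a whole in this respect: of all higher peaks 440 (52.4%) had the 3' UTR label alone and 587 (69.9%) touched the 3' UTR, against 35 (17.2%) and 54 (26.6%) of the lower peaks. With 5 genes chosen with the results known, no test of a difference from the list was made.

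**Figure D3:**
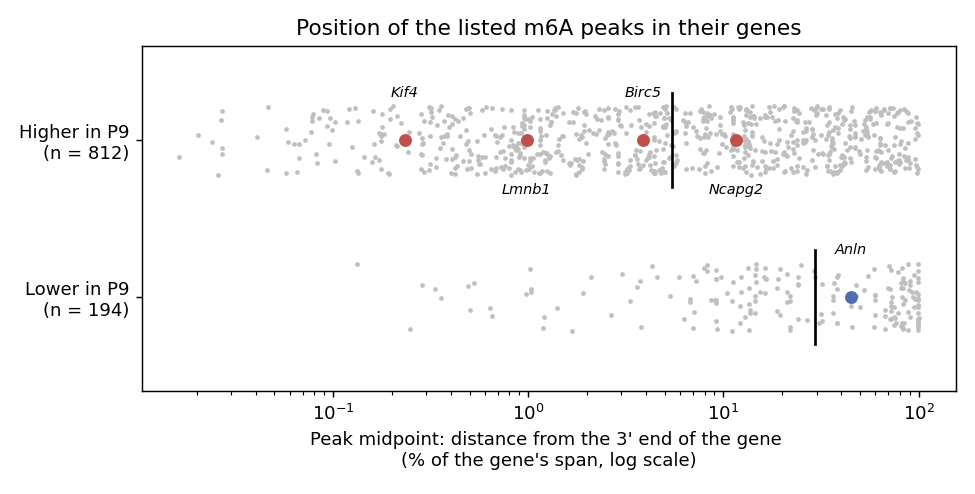
Distance of the midpoint of each listed peak from the 3' end of its RefSeq gene, in percent of the gene's span on a log axis, for 812 higher and 194 lower peaks that could be placed inside a gene. Black bars are the medians of 5.45% and 29.3%, and Kif4 (0.233%), Lmnb1 (0.983%) and Birc5 (3.89%) lie nearer to the 3' end than Ncapg2 (11.6%) and Anln (45.1%). Midpoints are those of the genomic span with introns, and those of Ncapg2 and Anln fall in gaps between exon blocks.

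All 5 peaks were listed for 1 transcript only, as were most sites in the lists. After overlapping peaks had been merged, 330 of 525 higher sites (62.9%) and 91 of 132 lower sites (68.9%) had a single listed transcript. None of the 5 genes had a further peak in either list, as was the case for 396 of the 633 genes (62.6%), and no listed peak of another gene lay inside their spans. The position of each peak thus rests on 1 interval with no second transcript to set it against.

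The wider machinery was examined with 6 lists that hold 128 genes, of which 123 are not among the 5. Of the 128 genes, 15 had a listed peak. In 14 of these 15 the peak was higher in P9 than in P3 MEFs, and in 1, Anln, it was lower. Over all 633 listed genes, 79.3% had only higher peaks and 19.3% only lower peaks. The 15 include the 5 genes that were chosen from among listed genes, and 10 of the other 123 had a listed peak. How many genes could have been listed is not known, so no share over all genes stands beside these counts or those of the single lists. The 6 lists of genes were drawn up with earlier results of these data known. They do not hold every gene of cell division, and the counts by direction hold for these lists only. Outside them, Kif2a and Cntrl were listed with lower peaks, and Aspm and Haus2 with higher peaks. A gene without a listed peak may have had no peak, no difference or too little signal, which cannot be told apart. Of the 12 genes besides Kif4 in the list of mitotic kinesins, none had a listed peak, and Kif2a was not in that list. In the list of condensin and cohesin genes, 2 of the 22 besides Ncapg2 had one, and neither encodes a condensin subunit. Espl1, the gene of the protease separase that cuts cohesin at anaphase, had a coding peak of 121 nt, and the cohesin subunit gene Stag2 had a peak of 270 nt in the 5' UTR, the single peak with the 5' UTR label among the 15.

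Of the chromosomal passenger complex, the mitotic kinases and the checkpoint, Ccnb2 was the only one of 25 genes besides Birc5. It encodes cyclin B2, a partner of Cdk1, and its peak of 236 nt had the labels of coding sequence and 3' UTR and ended 3 nt before the end of the gene. The other passenger complex genes Incenp, Cdca8 and Aurkb had no listed peak. Of 25 kinetochore and centromere genes, Knl1, a scaffold of the outer kinetochore, had a coding peak of 421 nt in 3 blocks, and Spdl1, which encodes the dynein adaptor Spindly, a peak of 508 nt in coding sequence and 3' UTR. In the cytokinesis list, which does not hold Cntrl, Cit was the only one of 22 genes besides Anln with a listed peak. Cit encodes citron kinase, which like anillin works at the contractile ring and midbody, and its peak was also coding and also in 3 blocks, with 361 nt, but was listed as higher, for 4 transcripts.

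In the list of lamina and inner nuclear membrane genes, 4 of 17 besides Lmnb1 had a listed peak, which was higher in each, the direction of 79.3% of all listed genes. Tmpo encodes the lamina-associated polypeptide LAP2, which binds lamins and chromatin, and had a 3' UTR peak of 360 nt listed for 4 transcripts. Ankle2, a gene of the re-forming nuclear envelope after mitosis, had a 3' UTR peak that like that of Lmnb1 was 180 nt long in 1 block, and it ended at the last base of the RefSeq gene. Syne1 and Syne2 encode nesprins, the giant spectrin-repeat proteins that link the nucleus to the cytoskeleton, and both had coding peaks, of 450 nt in 3 blocks and 631 nt in 5 blocks. The transcript listed for Syne1 was 27908 nt long. Syne2 had 5 listed transcripts, and its longest peak length of 631 nt was shared by those of 21690, 21704 and 5789 nt. The lamin genes Lmna and Lmnb2 and the lamin B receptor gene Lbr had no listed peak. Over the 10 genes that are not among the 5, the peak was coding in 5, in the 3' UTR alone in 2, in both in 2 and in the 5' UTR in 1, and the midpoint was within 5% of the gene's span from the 3' end in 4. These 4 were Ankle2 (0.349%), Ccnb2 (0.869%), Spdl1 (1.18%) and Tmpo (4.9%). The midpoints of the other 6 were at 14.0% in Syne2, 20.5% in Cit, 31.8% in Espl1, 36.5% in Syne1, 56.5% in Knl1 and 79.4% in Stag2, on both sides of the 45.1% of Anln. Peaks far from the 3' end were thus present among the higher peaks of these lists as well as in the lower peak of Anln.

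**Figure D4:**
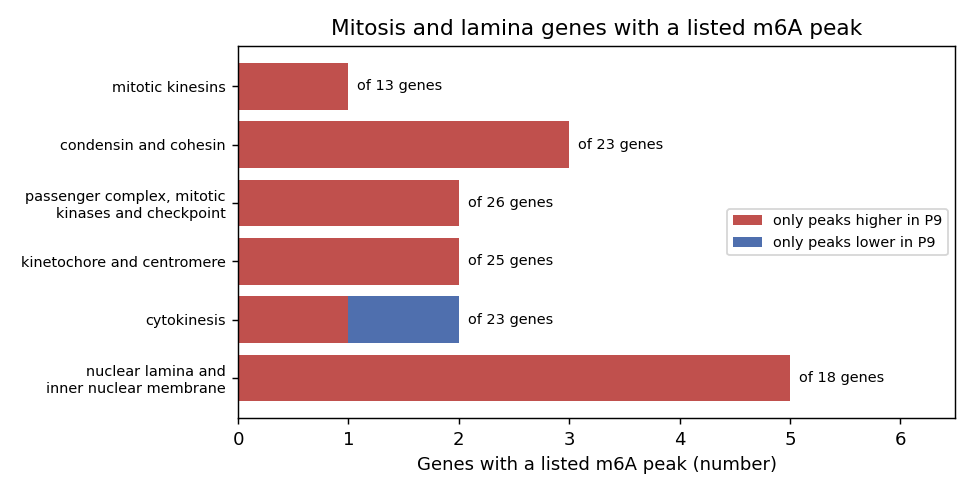
Number of genes with a listed m6A peak in each of 6 gene lists, with the size of the list beside the bar. Red bars are genes with only peaks higher in P9 than in P3 MEFs and the blue bar is Anln, the 1 gene of 15 with a lower peak.

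The bases under the 5 peaks are not shown, because no genome sequence was used here. Outside the peaks, the promoters of the genes were searched for the cell cycle genes homology region (CHR), an element with the letters TTTGAA through which the DREAM and MuvB complexes hold mitotic genes silent in resting cells and switch them on late in the cycle. It is a feature of the DNA and was not measured in this experiment. In the RefSeq promoter table (GRCm38.p6, 250 bases before to 50 bases after 1 listed start of each of these genes), 4 of the 5 genes were found, all but Lmnb1. The letters, searched on both strands, were present in Anln, Kif4 and Ncapg2, against 17.9% of 32851 promoters in the table, and had no match in Birc5. Below are 30 bases around a match on the coding strand, with the CHR letters in capitals, to show that the 1 gene with a lower peak and 2 of those with a higher peak carry the same letters near the listed start.
Anln, chr9:22389161-22389190, minus strand: tgaaattcaaatTTTGAAcggccgtggtag
Kif4, chrX:100626072-100626101, plus strand: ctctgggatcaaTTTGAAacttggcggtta
Ncapg2, chr12:116405406-116405435, plus strand: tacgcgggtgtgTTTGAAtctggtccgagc

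Counted from the start base of the promoter table as 0, the first base of the match was at 28 in Anln, 19 in Kif4 and -18 in Ncapg2. The start in the promoter table was the 5' end of the RefSeq gene span in Kif4 but lay 5 bases inside that span in Anln and 85 bases inside it in Ncapg2, so the match in Ncapg2 stood before the listed start and inside the gene span. Anln had a second match on the opposite strand, which began at 21 and did not overlap the first. The CCAAT box, searched as CCAAT on both strands and often found upstream of a CHR, had 2 matches in Kif4, at -152 and -5, and none in the promoters of Anln, Ncapg2 and Birc5, against 37.4% of all promoters in the table with at least 1. The CHR letters were thus present in Anln, with a lower peak, and in Kif4 and Ncapg2, with higher peaks. They were absent from Birc5, with a higher peak, and could not be searched in Lmnb1. A link between the letters and the direction of the peaks was not tested.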

How the data were processed

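RNA of P9 and P3 MEFs was fragmented, immunoprecipitated with an m6A antibody and sequenced on an Illumina HiSeq by the authors, with strand-specific libraries of pulled-down and input RNA. The authors deposited 1 list of higher and 1 of lower peaks for the whole comparison, named Treatment against Control. Treatment was read as P9 because the row numbers of both lists equal the paper's totals for P9 against P3. The labels name the build mm10, and the sources used here do not state the aligner, the peak caller or the rule for listing a peak. The lists also hold a fold and a p-value of the authors' own comparison for each peak, which were neither used nor printed. Library depths are unknown, and no label says that replicates were separate cultures.

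Peaks were read as exon blocks with 1-based coordinates. Blocks that overlapped or touched in the same direction and strand formed a site, represented by its longest peak. A position was measured against the RefSeq span of the gene on GRCm38.p6, matched by symbol and chromosome (1016 of 1043 peaks) or by synonym (14), and 24 peaks with a midpoint outside the matched gene were left out of positions. The midpoint was that of the genomic span of the peak, introns included. All genes of the 6 lists with a listed peak were named, and 6 without one were named after the lists had been read. Kif2a, Cntrl, Aspm and Haus2, which are outside the 6 lists, were named as examples. The members and lists were chosen with earlier results of these data known, so no test was run. The procedure was tested on simulated data. Python 3.11.15, pandas 2.3.3, numpy 2.4.6 and matplotlib 3.10.9 were used.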

Additional observations from a re-analysis of the deposited data

How the results depend on the processing

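The direction of the 5 peaks was the same whether genes, listed peaks or merged sites were counted (4 higher and 1 lower each time). Over the 6 gene lists, 14 genes with higher peaks became 25 when each listed transcript was counted, because a site is listed once per transcript, and stayed at 14 with merged sites. The number of the 5 peaks placed in coding sequence was 2 when a peak with several labels counted as coding, and 1 both when the 3' UTR label came first and when peaks with several labels were left out, since Ncapg2 alone has several. The median peak length of 300 nt became 507 nt when the genomic span with the introns of Anln and Ncapg2 was taken. The median position, 3.89% of the gene's span from the 3' end by the midpoint, became 0.787% by the 3' edge of the peak. Taking the transcript with the shortest peak changed neither, since each peak had 1 transcript. The search for the m6A consensus needs a genome of the build, which was not used here, and was not run. Leaving out a library was not run because no values per library were used here. No paired analysis was possible because the lists hold no values per library.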
